A study of Homo sapiens with 8 samples.

Results

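The 40 genes described here are the replication-dependent histone genes of the deposited gene table, which holds 13471 genes. They were taken as every row whose gene name begins with HIST followed by a cluster number and H, and they divide by the protein they encode into 3 H1, 14 H2A, 11 H2B, 6 H3 and 6 H4 genes. By position, 34 lie in the HIST1 cluster on chromosome 6, 5 in the HIST2 cluster on chromosome 1, and HIST3H2A lies alone on another stretch of chromosome 1. The GENCODE annotation names a further 31 protein-coding genes of this naming pattern, which have no row of that name in the table. The table holds no value of 0 in any library, so each of the 40 genes had a value above it in all 8. Statements on all 40 genes thus cover only genes with a value in every library.

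RNA was measured with and without immunoprecipitation (IP) of hnRNP U, a nuclear protein that binds both RNA and chromatin and is also called SAF-A. The cells were hTERT-RPE1, a human retinal pigment epithelium line immortalised with telomerase. The interphase groups were treated for 24 h with thymidine at 2 mM, a dose that blocks DNA synthesis. Mitotic cells had been kept in 2 mM thymidine for 24 h, released into medium without it for 6 h and then held overnight in S-trityl-L-cysteine (STLC), an inhibitor of the kinesin Eg5 that arrests cells in mitosis. Each phase was sequenced without IP and after IP with the anti-hnRNP U antibody 3G6, with 2 libraries in each of the 4 groups, from RNA depleted of ribosomal RNA. Thymidine treatment was thus shared by all 4 groups. No control-antibody IP was used here. The labels do not say whether replicates came from separate cultures, so p-values measure the spread between these libraries, which may be technical.

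Replication-dependent histone genes are transcribed in S phase, when newly copied DNA has to be packed into nucleosomes. H2A, H2B, H3 and H4 form the nucleosome core, and the linker histone H1 binds the DNA where it enters and leaves that core. Their mRNAs are the main class of animal mRNAs that lack a poly(A) tail: they end instead just after a conserved stem-loop, which the stem-loop binding protein SLBP holds during processing, translation and decay. The mRNAs are degraded rapidly when DNA replication ends, so their level follows the cell cycle closely.

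The stem-loop is shown because it defines the mRNA type that separates these genes from the rest of the table. GENCODE annotates at least 36 bases beyond the stop codon for 21 of the 40 genes. In 17 of these a search of the first 100 bases after the stop codon found a pair of 6-base arms that match exactly around a 4-base loop, with the upstream arm beginning in GG and the loop in T. It began 25 to 57 bases after the stop codon, with a median of 37.0. The same search found such a structure in 17 of 18888 other protein-coding genes, a share of 0.0900%. The forms below are written 5′ to 3′ with the paired arms in capitals.
H2A, H2B and H3 form (11 genes, among them HIST1H2AC, HIST1H2BG and HIST1H3H): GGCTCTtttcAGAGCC
HIST1H2BC and HIST1H2BD: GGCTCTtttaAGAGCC
HIST1H3E: GGCTCTtctcAGAGCC
HIST1H4B, HIST1H4E and HIST1H4H: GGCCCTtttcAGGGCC
The H4 genes differed from the others in the arms, and HIST1H3E was alone in its loop. A loop that began with TT was present in 16 of the 21 genes with sequence to search and in 3 of the 18888 other genes (0.0159%). For HIST1H1E, HIST1H2AG, HIST1H2BJ and HIST1H4C the annotated transcripts past the stop codon held no such structure in the window searched, and the other 19 genes have no bases annotated past it.

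Promoter sequence differed between classes as well. RefSeq entries on GRCh38.p14, each running from 250 bases before to 50 bases after a gene's start, matched 34 of the 40 genes. The motif TATAAA, searched like the others on both strands, was in 67.6% of them and in 11.5% of all 35116 promoters of the same length. CCAAT was in 88.2% against 34.6%, and ATTTGCAT, the octamer, in 17 of 34 against 1.77%. The octamer was in 10 of 13 H2A and 7 of 9 H2B promoters and in none of the 3 H1, 5 H3 and 4 H4 promoters. Windows of neighbouring H2A and H2B genes transcribed away from each other overlap, as for HIST1H2AG and HIST1H2BJ. A match between such genes is thus counted in both classes, and the H2A and H2B counts are not independent. CCAAT was in every H1, H2A, H2B and H3 promoter and in 0 of the 4 H4 promoters. The sequences below show this contrast, with matches to the 3 motifs on either strand in capitals, overlapping matches run together. The first is the whole stretch between the starts of HIST1H2BJ and HIST1H2AG, which are transcribed away from each other, and the others are the 250 bases before the RefSeq start of an H4 and an H3 gene.
HIST1H2BJ to HIST1H2AG (GRCh38.p14, chr6:27132797-27133037, plus strand): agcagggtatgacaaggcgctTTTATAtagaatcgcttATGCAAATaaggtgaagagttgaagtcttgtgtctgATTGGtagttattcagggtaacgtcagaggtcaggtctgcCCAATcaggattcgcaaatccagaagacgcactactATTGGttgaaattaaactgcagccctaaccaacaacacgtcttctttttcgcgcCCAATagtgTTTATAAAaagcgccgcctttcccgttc
HIST1H4B (GRCh38.p14, chr6:26027284-26027533, minus strand): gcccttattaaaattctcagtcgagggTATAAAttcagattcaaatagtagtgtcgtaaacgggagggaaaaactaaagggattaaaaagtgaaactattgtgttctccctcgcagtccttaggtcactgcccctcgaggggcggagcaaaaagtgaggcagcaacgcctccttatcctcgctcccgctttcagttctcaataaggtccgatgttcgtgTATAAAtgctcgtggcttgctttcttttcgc
HIST1H3B (GRCh38.p14, chr6:26032100-26032349, minus strand): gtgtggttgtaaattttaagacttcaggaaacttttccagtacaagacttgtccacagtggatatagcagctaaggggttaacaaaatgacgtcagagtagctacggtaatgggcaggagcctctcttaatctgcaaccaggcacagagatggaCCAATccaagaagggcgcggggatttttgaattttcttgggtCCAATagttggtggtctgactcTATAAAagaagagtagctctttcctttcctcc
A match describes these letters in this window and was not read as a bound site.

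Values are FPKM, fragment counts scaled to transcript length and to library size, so levels below are compared per length. The FPKM of 36 of the 40 genes fell on whole-fragment steps (all 280 values of the 35 genes with intervals under 1000 nt were within 0.05 of a whole fragment), which gave the fragments behind each value and library sizes between 12 (mitotic IP replicate 1) and 22.3 (mitotic IP replicate 2), in units of 1e6 fragments. The median gene among the 36 had 2966 and 2536 fragments in interphase without IP, 308 and 257 in the interphase IP, 27.5 and 29 in mitosis without IP, and 9.50 and 14.0 in the mitotic IP. At 10 fragments or fewer stood none in the interphase libraries, 10 and 7 genes in mitosis without IP, and 18 and 15 in the mitotic IP. All 5 markers of mitosis and G2 that were examined rose in mitosis without IP and 4 of 5 S-phase markers fell (limma, adjusted p below 0.05). Of 9 markers of retinal pigment epithelium, 5 had a row in the table: MITF, OTX2, KRT8 and KRT18 were at 3.33 FPKM or above in each library, and PMEL was at 0.144 FPKM or below. Summed over all genes, FPKM ranged from 1017308 to 1249972 without IP and from 321539 to 459661 in the IP, so other scalings were run: the median log2 fold change of the 40 genes in the interphase IP was -3.35 after median centring and -2.99 after quantile normalization, beside -3.47 as deposited.

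In interphase without IP, these genes were among the most abundant of the table. HIST1H4C, an H4 gene at chr6:26103948-26104337 (hg38, plus strand), stood at 1936 and 2351 FPKM and ranked 23 of 13471. The median of the 40 genes was above 98.8% of all genes, and 32 of them were among the 500 highest. HIST1H4B, at chr6:26026896-26027252, followed with 1854 and 1979 FPKM, and HIST1H3B, the highest H3 gene, at chr6:26031589-26032060, with 1624 and 1558 FPKM. The libraries of HIST1H4C and HIST1H4B overlapped, so the order of these 2 is within their spread, whereas HIST1H3B was below both in each library. The highest H1 gene, HIST1H1C at chr6:26055740-26056471, had 942 and 959 FPKM. The highest H2A and H2B genes were HIST1H2AG with 940 and 893 FPKM and HIST1H2BJ with 837 and 972 FPKM, of which the second overlapped with HIST1H1C and the first lay just below it. HIST1H4E, another H4 gene, had 1463 and 1454 FPKM. Other genes near the level of HIST1H1C were the H3 genes HIST1H3H with 953 and 996 FPKM and HIST1H3C with 985 and 953, and the H4 genes HIST1H4D with 910 and 1060 and HIST1H4H with 923 and 882. HIST1H2AH was lower, with 788 and 744 FPKM. HIST1H3E, at chr6:26225155-26225616, was the lowest of the 40 with 26.1 and 22.3 FPKM.

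Abundance was unequal within each class. H4 genes made up 33.9% and 35.3% of the summed FPKM of the 40 genes from 6 genes, H2A 23.9% and 22.2% from 14, H3 18.1% and 17.0%, H2B 16.6% and 18.1%, and H1 7.44% and 7.32%. The 34 HIST1 genes carried 94.7% and 94.9% of the sum and the 5 HIST2 genes 5.09% and 4.96%. HIST2H2AC was the highest HIST2 gene with 488 and 509 FPKM, followed by HIST2H3D with 261 and 269 FPKM and HIST2H2AB with 217 and 221 FPKM. HIST2H2BF had 78.6 and 75.0 FPKM and HIST2H2BE 55.0 and 48.5 FPKM, while HIST3H2A had 41.3 and 38.5 FPKM. Shared sequence limits such single-gene values. Pooled over all other annotated histone genes, 6 genes (HIST1H2AI, HIST1H2AJ, HIST1H2AM, HIST2H2BE, HIST2H2BF and HIST2H3D) shared most of their 50-base coding stretches, and 17 shared none. The most shared with any single gene was 46.7% for HIST2H2BE and 45.8% for HIST2H2BF. HIST1H2AM shared 86.3% with HIST1H3J, an H3 gene by name, so this does not describe a copy within its class. How shared reads were assigned is not given in the sources used here.

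**Figure D1:**
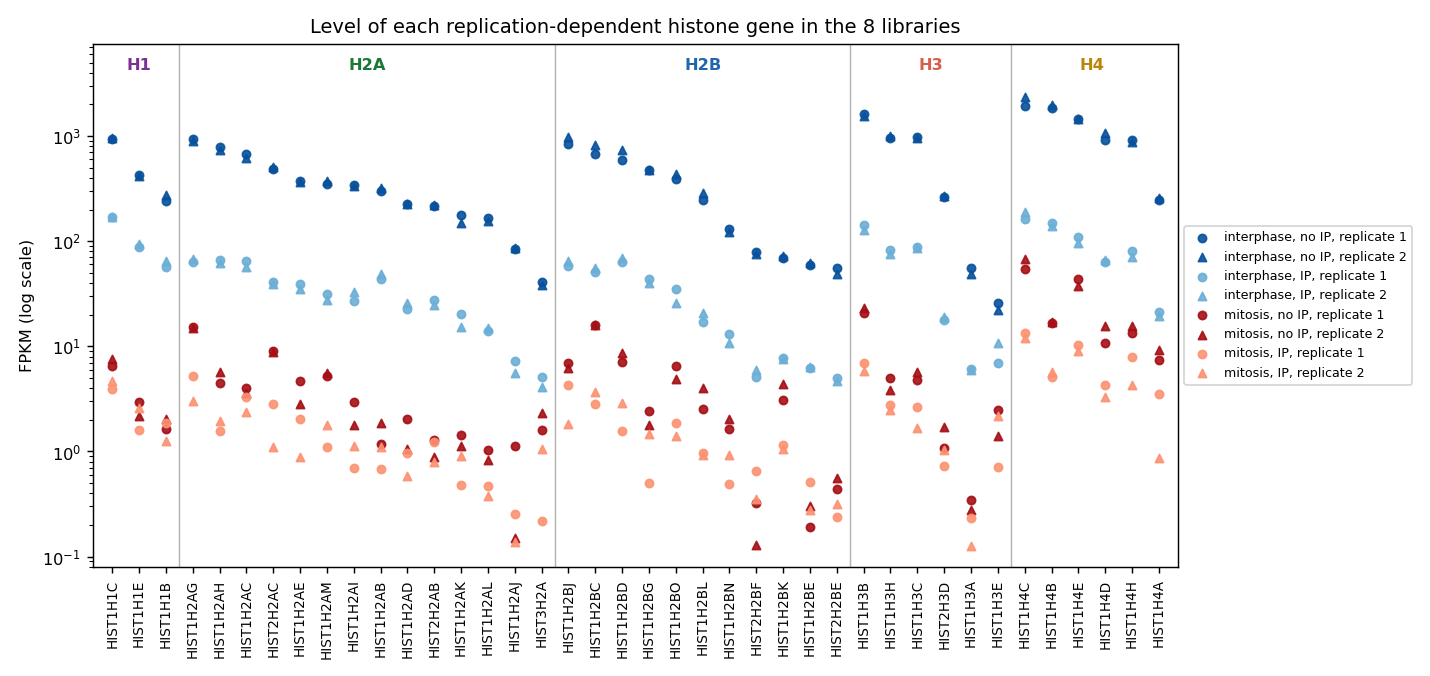
FPKM (log scale) of each of the 40 genes in the 8 libraries, grouped by class and ordered within a class by level in interphase without IP; circles and triangles are replicates 1 and 2. From top to bottom the groups run from interphase without IP, where HIST1H4C stands at 1936 and 2351 FPKM, through the interphase IP to the mitotic libraries, where many genes lie near or below 1 FPKM.

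The first comparison set the level of each histone mRNA in the interphase IP beside its level without IP. FPKM is scaled within each library, so these percentages are relative levels and not the part of an mRNA bound to hnRNP U. All 40 genes were lower in the IP than without it (limma adjusted p below 0.05), against 37.0% of all genes called lower and 37.6% called higher in this comparison. Their median log2 fold change was -3.47 and that of all genes 0.02. In FPKM, the IP held between 6.61% and 37.2% of the level without IP (mean of same-numbered libraries), with a median of 8.86%. HIST1H4C fell from 1936 and 2351 FPKM to 162 and 189 FPKM, with a log2 fold change of -3.60 (SE 0.16, adjusted p 3.93e-07). HIST1H3B fell from 1624 and 1558 to 141 and 129 FPKM, with a log2 fold change of -3.55 (SE 0.12). Even so, HIST1H4C still ranked 227 of 13471 genes in the interphase IP, and the median histone gene stood above 86.9% of all genes there.

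The linker histone genes kept a larger share of their level in the interphase IP than the core histone genes. HIST1H1C went from 942 and 959 FPKM without IP to 171 and 170 FPKM in the IP. HIST1H1E went from 424 and 419 to 88.9 and 93.2 FPKM, and HIST1H1B from 241 and 277 to 56.9 and 64.6 FPKM. The IP level of these 3 genes was thus 17.9% to 23.5% of the level without IP. In the core classes the range was 7.13% to 14.9% for the 14 H2A genes, 6.77% to 10.8% for the 11 H2B genes and 6.61% to 8.33% for the 6 H4 genes. Among H3 genes, 5 of 6 were between 6.94% and 11.5%, and HIST1H3E was the exception at 37.2%. The range of H1 therefore did not overlap with that of the other 36 core genes. Summed over a class, the IP held 19.7% and 19.8% of the H1 signal and 8.52% and 8.01% of the core signal in replicates 1 and 2. As a result the H1 share of all histone FPKM was 7.44% and 7.32% without IP and 15.7% and 16.3% in the IP, while the H4 share was 33.9% and 35.3% without IP and 28.9% and 29% in the IP. These class values are descriptions of members that were not tested as sets.

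Within the core classes, HIST1H2AB was the H2A gene that kept the most, with 300 and 320 FPKM without IP and 44.0 and 48.5 FPKM in the IP (14.7% and 15.2%). HIST1H2AG kept the least, with 940 and 893 FPKM falling to 63.1 and 67.4 FPKM. Among H2B genes, HIST1H2BK was at 11.2% and 10.4% and HIST1H2BJ at 6.91% and 6.62%. HIST1H3E went from 26.1 and 22.3 FPKM without IP to 6.90 and 10.7 FPKM in the IP, with a log2 fold change of -1.39 (SE 0.31, adjusted p 0.00286). Its replicate percentages of 26.4% and 48.1% lay farther apart than those of any other gene, and they rest on 49 and 66 fragments in the IP. Across the 40 genes the log2 IP ratios of replicates 1 and 2 correlated with an r of 0.93 and a rho of 0.82, so the order of genes was largely shared by the replicates. The points of this correlation share libraries and normalization.

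Transcript length moved with these values. The H1 intervals were 732 to 790 nt long, whereas the core genes with intervals under 1000 nt ran from 357 nt (HIST1H4B) to 564 nt (HIST1H2AE). Over the 35 genes with such intervals, length and log2 IP ratio correlated with an r of 0.64, and with an r of 0.24 over the 32 of them that are not H1 genes. When trends with annotated transcript length and GC content were removed in each library, 37 of the 40 genes remained lower in the interphase IP, and their median was -1.44. The class medians were then -0.14 for H1, -1.28 for H2A, -2.78 for H2B, -1.44 for H3 and -2.12 for H4, and the genes no longer called were HIST1H1B (-0.01), HIST1H1E (-0.14) and HIST1H2AB (-0.51). For 19 of the 40 genes the annotation holds nothing past the coding sequence. For HIST1H2BN, with an interval of 449 nt, it holds 3575 bases past the stop codon. These corrected values therefore also depend on which transcripts are annotated.

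**Figure D2:**
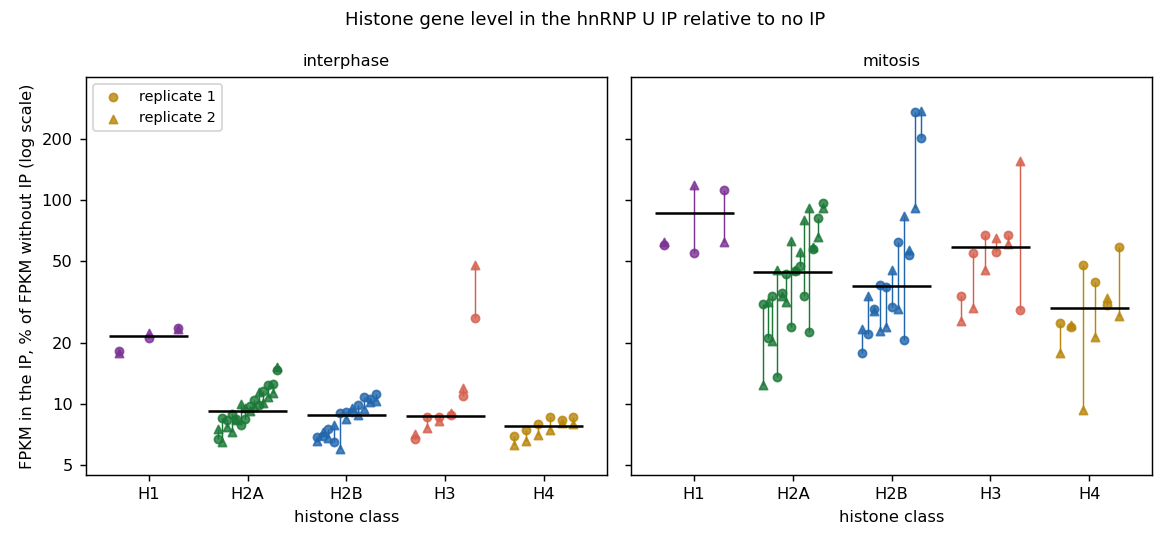
FPKM in the hnRNP U IP as a percent of FPKM without IP (log scale) for each gene, by histone class, in interphase and in mitosis; points are same-numbered libraries, lines join the replicates of a gene and bars are class medians. In interphase the 3 H1 genes have means of 17.9% to 23.5% and most core genes near 10% or below, with HIST1H3E above them, while in mitosis the values are higher and spread more between replicates.

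Without IP, histone mRNAs fell steeply from interphase to mitosis. All 40 genes were called lower in mitosis by limma, against 25.5% of all genes called lower and 26.2% called higher, with a median log2 fold change of -6.13 beside -0.00 for all genes. The summed FPKM of the 40 genes dropped from 21604 and 22603 to 293 and 311, which is 1.36% and 1.38% of interphase. In mitosis HIST1H4C ranked 1061 of 13471, and the median histone gene was above 36.5% of all genes. In these bulk libraries, fewer cells that make histone mRNA and less of it per cell cannot be told apart.

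H4 genes retained more of their interphase level than the other classes. Summed over H4, mitosis held 1.98% and 2.04% of interphase, compared with 1.31% and 1.20% for H2B, 1.08% and 1.03% for H2A, 0.877% and 0.934% for H3, and 0.689% and 0.711% for H1. The H4 share of all histone FPKM was 33.9% and 35.3% in interphase and 49.6% and 52.4% in mitosis, and the replicates of each class sum differed by less than the gap between H4 and the next class. HIST1H4C fell from 1936 and 2351 to 54.0 and 68.0 FPKM (log2 fold change -5.12, SE 0.16, adjusted p 1.43e-07), which left it the highest of the 40 in mitosis. HIST1H4E, another H4 gene, was next with 43.3 and 37.2 FPKM, and its values did not overlap with those of HIST1H4C. HIST1H4B, close to HIST1H4C in interphase, fell from 1854 and 1979 to 16.6 and 17.2 FPKM (log2 fold change -6.74, SE 0.10). The H4 genes were thus not uniform, with HIST1H4B at 0.897% and 0.871% of interphase and HIST1H4C at 2.79% and 2.89%.

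The genes that fell least were not H4 genes. HIST1H3E went from 26.1 and 22.3 FPKM to 2.47 and 1.4 FPKM, 9.45% and 6.30% of interphase (log2 fold change -3.12, SE 0.31, adjusted p 1.00e-04). HIST3H2A, the only member outside the HIST1 and HIST2 clusters, went from 41.3 and 38.5 to 1.61 and 2.30 FPKM, 3.90% and 5.98% of interphase. HIST1H2BK went from 69.1 and 71.9 to 3.06 and 4.39 FPKM, 4.43% and 6.12%, over an interval of 8566 nt that also covers the annotated HIST1H4I. All 3 were among the lower genes in interphase, but other low genes fell further. HIST1H3A, with 55.0 and 49.2 FPKM in interphase, stood at 0.346 and 0.275 FPKM in mitosis, and HIST1H2BE, with 58.8 and 61.8 FPKM, at 0.191 and 0.304 FPKM. On the log2(FPKM + 1) scale the steepest fall of the 40 was that of HIST1H3H, from 953 and 996 to 4.96 and 3.81 FPKM (log2 fold change -7.51, SE 0.12). By percent of interphase, HIST2H2BF at 0.291%, HIST1H2BE at 0.409% and HIST1H2BG at 0.443% were below HIST1H3H at 0.452%. The order of these genes is not resolved. Mitotic fragments without IP were 1 and 2 for HIST1H2BE, 13 and 12 for HIST1H2BG and 29 and 28 for HIST1H3H. Replicate shares of HIST2H2BF were 0.410% and 0.171%. Over the 40 genes, the log2 ratios of mitosis to interphase correlated between replicates with an r of 0.85 and a rho of 0.83.

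**Figure D3:**
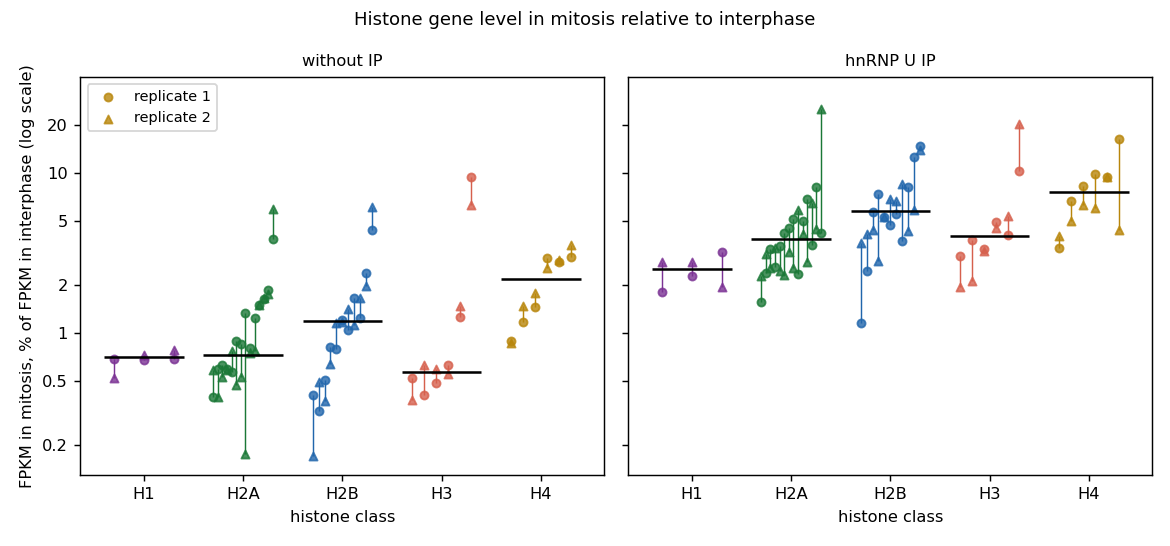
FPKM in mitosis as a percent of FPKM in interphase (log scale) for each gene, by histone class, without IP and in the hnRNP U IP; points are same-numbered libraries, lines join the replicates of a gene and bars are class medians. Without IP the H4 median is 2.19% and the H1 median 0.708%, and HIST1H3E, HIST3H2A and HIST1H2BK stand above their classes.

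In mitosis the IP deficit of histone mRNAs was smaller. Of the 40 genes, 29 were lower in the mitotic IP than in mitosis without IP, 0 were higher and 11 were not called (limma adjusted p below 0.05), against 31.7% of all genes called lower and 32.8% called higher. At this threshold the lower calls comprised 6 of 6 H4, 11 of 14 H2A, 8 of 11 H2B, 3 of 6 H3 and 1 of 3 H1 genes. Their median log2 fold change over the 40 genes was -0.85, beside 0.01 for all genes. Both IP libraries were below both libraries without IP for 33 of the 40 genes and for 40.1% of all genes. HIST1H4C fell from 54.0 and 68.0 FPKM without IP to 13.5 and 12.1 FPKM in the IP (log2 fold change -2.16, SE 0.16, adjusted p 1.18e-05). HIST1H2BC, an H2B gene, fell from 15.9 and 16.0 to 2.81 and 3.71 FPKM (log2 fold change -2.0, SE 0.13), and HIST1H2AG from 15.4 and 14.9 to 5.18 and 3.02 FPKM (-1.69, SE 0.18). The same 2 groups stood at 4.52 and 5.72 against 1.58 and 1.94 FPKM for HIST1H2AH, 4.81 and 5.66 against 2.64 and 1.68 for HIST1H3C, 10.7 and 15.6 against 4.25 and 3.33 for HIST1H4D, and 13.4 and 15.7 against 7.95 and 4.27 for HIST1H4H. HIST1H4E fell from 43.3 and 37.2 to 10.4 and 9.12 FPKM (-1.94, SE 0.12). For these 8 genes, all called lower, the groups did not overlap.

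The genes that were not called had mitotic groups close together on the log2(FPKM + 1) scale of the test or rested on few fragments. HIST1H1B had 1.64 and 2.03 FPKM without IP and 1.85 and 1.26 FPKM in the IP, and HIST1H1E had 2.94 and 2.19 FPKM without IP and 1.61 and 2.60 FPKM in the IP, so both groups overlapped. HIST1H1C, the H1 gene with most signal, did fall, from 6.48 and 7.53 to 3.90 and 4.70 FPKM (log2 fold change -0.60, SE 0.11, adjusted p 0.00144). With length and GC trends removed, however, HIST1H1C was called higher (0.41, adjusted p 0.0395). HIST1H2AJ had 6 and 1 fragments without IP and 1 and 1 in the IP, HIST1H2BE had 1 and 2 against 2 and 2, and HIST1H3A had 2 and 2 against 1 and 1. A count of 1 fragment has a 95% Poisson interval of 0.0253 to 5.57, which covers counting error only, so the values of these 3 genes are imprecise. HIST1H3E was at 2.47 and 1.4 FPKM without IP and at 0.714 and 2.18 FPKM in the IP, from 3 and 17 fragments. Of the 5 HIST2 genes, HIST2H2AC fell, from 9.12 and 8.91 to 2.82 and 1.10 FPKM (log2 fold change -1.82, SE 0.23), and the other 4 were not called. One of these, HIST2H2BE, had groups that did not overlap, at 0.440 and 0.559 FPKM without IP and 0.237 and 0.319 in the IP. At such low FPKM the log2 fold change of the test was only -0.23 (limma adjusted p 0.130). HIST2H2BF was the gene with both IP libraries above both without IP, at 0.653 and 0.351 against 0.323 and 0.128 FPKM, with a log2 fold change of 0.29 (SE 0.15, adjusted p 0.111). HIST1H2AK, at 1.42 and 1.13 FPKM without IP and 0.479 and 0.901 FPKM in the IP, had an adjusted p of 0.0558.

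Both the ratio and its order among genes were less certain in mitosis than in interphase. The log2 IP ratios of the 40 genes correlated between replicates with an r of 0.41 in mitosis and 0.93 in interphase. In mitosis the ratio also moved with level, with an r of -0.75 between log2 FPKM without IP and log2 IP ratio over the 40 genes, 2 measures that share a library. Removing trends with length and GC content changed directions here: 9 genes were then called lower and 11 higher, with a median of -0.01 and class medians from 0.81 for H1 to -0.94 for H4. HIST1H4C, HIST1H4E, HIST1H2AG and HIST1H2BC stayed lower under this correction, at -1.38, -1.92, -1.76 and -1.55. The correction took the longest annotated transcript of each gene. For these genes annotated transcripts reach 51, 1082, 1827 and 272 bases past the stop codon. Their intervals are 390, 377, 498 and 438 nt, so staying lower also depends on which transcripts are annotated. Among the other genes HIST2H2AB, at -0.05 without the correction (adjusted p 0.801), became 1.35 with an adjusted p of 3.64e-05.

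**Figure D4:**
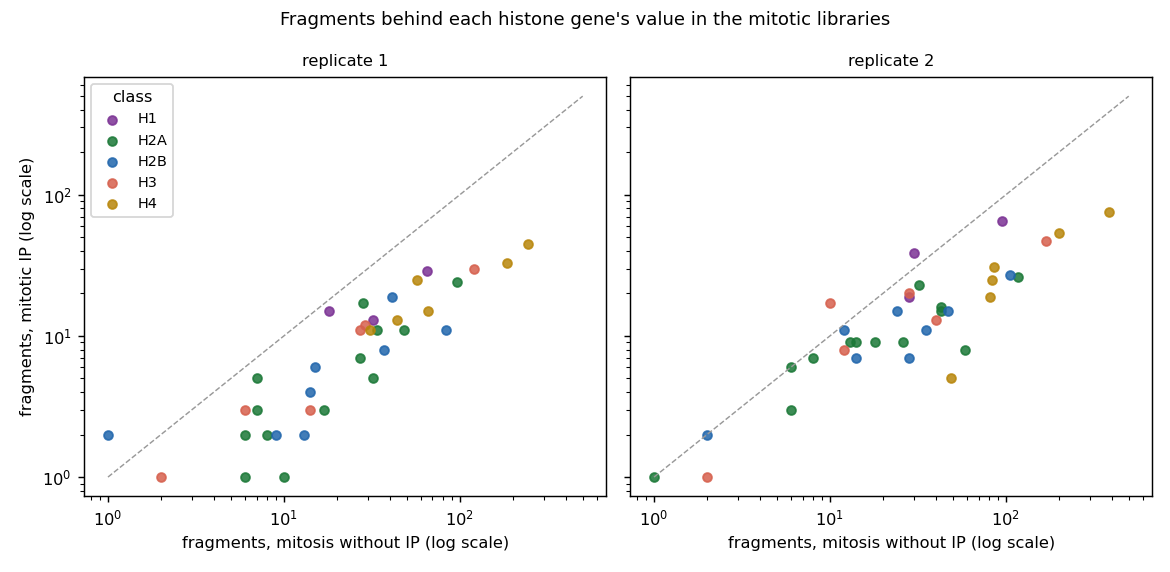
Fragments behind the value of each of the 36 genes with recovered fragments in the mitotic IP (vertical, log scale) against mitosis without IP (horizontal, log scale), for same-numbered libraries and coloured by class; the dashed line marks equal fragment numbers, without scaling to library size. HIST1H4C, at upper right, has 243 and 385 fragments without IP and 45 and 75 in the IP, and many genes have 10 fragments or fewer.

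The difference of the IP effect between phases was tested directly. For 39 of the 40 genes the log2 IP effect was higher in mitosis than in interphase, that is, less negative (limma interaction, adjusted p below 0.05), against 27.2% of all genes called higher and 19.9% called lower. The median difference was 2.39 on the log2 scale, beside 0.07 for all genes. HIST1H3E was not called, with a difference of 1.08 (SE 0.44, adjusted p 0.0712), and without mitotic IP replicate 1 it was 1.52 and called. In the sums over the 40 genes, the IP held 9.35% and 8.88% of the signal in interphase and 34.8% and 28.8% in mitosis. The FPKM sum of all genes was itself lower in the IP. It was 349389 and 321539 against 1087268 and 1138350 without IP in interphase. In mitosis it was 459661 and 379709 against 1249972 and 1017308. The percentages of the 40 genes are thus not a deficit against the library total. For HIST1H4C the share was 8.37% and 8.06% in interphase and 25.0% and 17.8% in mitosis, a difference of 1.44 (SE 0.23, adjusted p 0.00118), the smallest among the called genes. HIST1H1C had 18.2% and 17.7% in interphase and 60.2% and 62.4% in mitosis, a difference of 1.88 (SE 0.16). HIST2H3D, an H3 gene, had 6.77% and 7.11% in interphase and 67.4% and 60.8% in mitosis, a difference of 3.44 (SE 0.21), on 3 and 8 fragments in the mitotic IP. The class medians of the difference were 1.91 for H1, 2.06 for H4, 2.53 for H2A, 2.62 for H3 and 2.63 for H2B. In mitosis, too, H1 had the highest class sum in the IP, 66.5% and 72.8% of the level without IP, and H4 the lowest, 30.7% and 21.7%. On the log2(FPKM + 1) scale used for the test, changes of genes near 1 FPKM are understated, which touches most mitotic values. For genes lower in the mitotic IP this makes the difference between phases larger. With 0.1 added in place of 1, the median in the mitotic IP was -1.27 and the median difference 2.10. The difference was then called higher for 37 of the 40 genes and for 3435 of all 13471.

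Within the IP, all 40 genes were again lower in mitosis than in interphase (limma adjusted p below 0.05), against 25.6% of all genes called lower and 35.8% called higher, with a median log2 fold change of -3.71 beside 0.08. Summed over the 40 genes, the IP signal went from 2020 and 2006 FPKM in interphase to 102 and 89.6 FPKM in mitosis, 5.05% and 4.46% of interphase. By class the sums in mitosis were 7.64% and 6.08% of interphase for H4, 4.95% and 4.87% for H2B, 4.43% and 3.74% for H2A, 4.12% and 4.09% for H3, and 2.32% and 2.61% for H1, the same order at both ends as without IP. HIST1H1C went from 171 and 170 FPKM to 3.90 and 4.70 FPKM, HIST1H2AH from 66.4 and 62.0 to 1.58 and 1.94, HIST1H3C from 87.2 and 86.4 to 2.64 and 1.68, HIST1H4D from 63.1 and 66.5 to 4.25 and 3.33, and HIST1H4H from 80.1 and 70.4 to 7.95 and 4.27. HIST3H2A went from 5.13 and 4.14 FPKM to 0.217 and 1.05 FPKM, from 40 and 28 fragments to 1 and 9, so its replicates differed widely in the mitotic IP.

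Some replication-dependent genes are known to give polyadenylated transcripts as well, and 5 of them were listed for comparison: HIST1H1C, HIST1H2AC, HIST1H2BD, HIST1H2BK and HIST2H2BE. The list was not checked for completeness, so the other 35 may include more such genes. All 5 were lower in the interphase IP, 4 of 5 in the mitotic IP, and all 5 were lower in mitosis than in interphase without IP. Their median log2 fold change of the interphase IP was -3.18, beside -3.55 for the other 35. Their median share of interphase left in mitosis without IP was 0.976%, beside 0.779%. Sums went the other way, with 0.906% and 1.02% left for the 5 genes and 1.41% and 1.42% for the other 35. HIST1H2AC went from 670 and 618 FPKM in interphase without IP to 3.99 and 3.62 FPKM in mitosis. HIST1H2BD, whose interval of 13228 nt reaches well past the short transcript, went from 588 and 733 to 7.09 and 8.57 FPKM, and HIST2H2BE from 55.0 and 48.5 to 0.440 and 0.559 FPKM. Of the 5, HIST1H2BK kept the largest share of its interphase level. The libraries were depleted of ribosomal RNA and not selected for poly(A), so both kinds of transcript enter the same value.

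Neighbouring H2A and H2B genes that are transcribed away from each other had similar levels. There were 8 such pairs, with 224 to 323 nt between the starts, 7 in HIST1 and HIST2H2AC with HIST2H2BE in HIST2. In the 6 pairs where both intervals were under 1000 nt, the mean FPKM in interphase without IP differed by at most 0.37 on the log2 scale. HIST1H2AG and HIST1H2BJ, whose shared upstream stretch is printed above, had means of 917 and 904 FPKM, HIST1H2AC and HIST1H2BC 644 and 744 FPKM, and HIST1H2AK and HIST1H2BN 163 and 127 FPKM. The log2 levels of these 6 pairs correlated with an r of 0.96, as a description over 6 points from the same libraries. In the other 2 pairs the H2B gene has a long interval and a far lower FPKM, 70.5 for HIST1H2BK beside 766 for HIST1H2AH and 51.7 for HIST2H2BE beside 498 for HIST2H2AC, and over all 8 pairs r was 0.22. The median absolute log2 difference was 0.36 in the 8 pairs and 1.36 in the other 95 combinations of an H2A and an H2B gene of the same cluster. Those 95 combinations also include genes with long intervals, such as HIST1H2BK and HIST2H2BF. A comparison limited to short intervals was not made for them, so interval length may enter this contrast. The share of the interphase level left in mitosis was close in one pair, with 1.5% for HIST1H2AM and 1.39% for HIST1H2BO. In others it was apart, with 2.16% for HIST1H2BC and 0.591% for HIST1H2AC, and 1.65% for HIST1H2AG and 0.732% for HIST1H2BJ.

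The genes of replication-independent histone variants, which are expressed outside S phase and mostly end in a poly(A) tail, were taken as a list for comparison. Of 13 listed, 11 had a row, and in the interphase IP 7 were lower, 1 higher and 3 not called, with a median log2 fold change of -0.67, against 37.0% of all genes lower and 37.6% higher. In mitosis without IP 4 were lower, 3 higher and 4 not called, which is near the 25.5% lower and 26.2% higher of all genes. Those not called include H3F3A, which was listed at 0.00140 to 0.00161 FPKM in all 8 libraries and gave no usable value. H2AFX, whose mRNA is known to end in a stem-loop or in a poly(A) tail, had the largest fall in the interphase IP among the 11, from 56.4 and 48.2 to 7.23 and 6.99 FPKM (log2 fold change -2.71, adjusted p 3.10e-07). It stood at 33.6 and 29.8 FPKM in mitosis without IP, so it fell by 0.70 on the log2 scale where the 40 genes had a median of -6.13. H2AFZ, the gene of H2A.Z, went from 707 and 670 FPKM without IP to 288 and 261 FPKM in the interphase IP and was at 577 and 696 FPKM in mitosis without IP. H2AFV, which encodes a second H2A.Z protein, was the variant that rose in the interphase IP, from 136 and 149 to 368 and 420 FPKM. CENPA, the centromeric H3 variant, was at 26.0 and 26.9 FPKM without IP and 25.1 and 28.7 FPKM in the interphase IP, and rose to 97.0 and 106 FPKM in mitosis without IP.

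Among genes that act in histone mRNA synthesis, 3′-end processing and decay, 15 of 16 listed had a row. In the interphase IP 4 were lower, 8 higher and 3 not called, with a median of 0.46, against 37.0% of all genes lower and 37.6% higher. In mitosis without IP 2 were lower, 6 higher and 7 not called, against 25.5% and 26.2% of all genes. SLBP, the stem-loop binding protein, was at 39.8 and 40.9 FPKM in interphase without IP and fell to 25.2 and 23.7 FPKM in mitosis (log2 fold change -0.70, adjusted p 3.32e-04). NPAT, the coactivator of histone gene transcription, fell from 4.42 and 4.42 to 2.82 and 2.70 FPKM in mitosis and rose to 15.2 and 16.9 FPKM in the interphase IP. LSM10, a subunit of the U7 snRNP that guides histone 3′-end cleavage, fell in the interphase IP from 10.5 and 8.80 to 2.48 and 1.95 FPKM. LSM11, its partner in that particle, rose there from 3.51 and 2.98 to 10.7 and 11.2 FPKM.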

How the data were processed

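The authors deposited 1 gene table on build hg38 with an FPKM value for each library and gene, per the file headers, together with ratio columns of IP over no IP and of mitosis over interphase for same-numbered libraries. The deposited ratio columns matched values recomputed from the FPKM columns to a relative error of 4.1e-13. TopHat and StringTie are named in the submitters' processing notes, with no versions. How reads shared by several genes were treated is not given in the sources used here. A second table, of lncRNAs on hg19, holds 0 rows with histone names and was not used.

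The 40 genes were selected by name, and the test was run on all 13471 genes with limma 3.58.1 in R 4.3.3 (linear model with intensity-trended empirical Bayes) on log2(FPKM + 1). The fit used all 8 libraries, a mean for each of the 4 groups and no filter. Benjamini-Hochberg adjustment ran over the whole table within each of 5 comparisons, and genes are called at an adjusted p below 0.05. The fit was tested on simulated data. Percentages are ratios of FPKM between same-numbered libraries, a number that names libraries and was not taken as a pairing. With 2 libraries a group, an exact permutation test of a single gene could not pass the threshold, so no such test is given. Fragments were recovered from FPKM, an effective length 111.4 nt below the interval and a step for each library. They served to describe depth and were not tested with a count model. Poisson intervals have a confidence level of 95% and cover counting error only.

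Transcript features came from GENCODE release 29 (GRCh38, the assembly of hg38), to which 97.5% of genes matched, and promoters from RefSeq on GRCh38.p14. The stem-loop rule was widened from a loop that begins with TT to one that begins with T after the sequence of HIST1H3E was seen. Values by library are given for 26 genes: in each class the 2 with the highest mean FPKM and those with the highest and lowest IP effects, those outside HIST1 and those not called. Other genes named (HIST1H2AC, HIST1H2BD, HIST1H2BG, HIST1H2AI, HIST1H2AM, HIST1H2BN, HIST1H3H, HIST1H4E, HIST1H2AE and HIST1H2BO) were chosen as listed genes or after their values were seen. The 40 genes, the lists and the tests were chosen with earlier results of these data known.

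Alternatives were a pseudocount of 0.1, a mean of at least 1 FPKM, quantile normalization, median centring, removal of length and GC trends (splines with 5 degrees of freedom), a replicate block and each library left out in turn.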

Additional observations from a re-analysis of the deposited data

Results flagged for a closer look

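The difference of the log2 IP effect between mitosis and interphase was called for 39 of the 40 histone genes (limma interaction, adjusted p below 0.05), and for each of them the IP effect was higher in mitosis. Among the genes whose values are given by library, the differences of the H1 genes were 1.91 for HIST1H1B, 1.88 for HIST1H1C and 1.99 for HIST1H1E. Those of H2A genes were 2.30 for HIST1H2AB, 2.10 for HIST1H2AG, 2.41 for HIST1H2AH, 3.16 for HIST1H2AJ, 2.70 for HIST1H2AK, 2.98 for HIST2H2AB, 1.78 for HIST2H2AC and 1.97 for HIST3H2A. Those of H2B genes were 1.78 for HIST1H2BC, 3.23 for HIST1H2BE, 2.90 for HIST1H2BJ, 1.89 for HIST1H2BK, 2.95 for HIST2H2BE and 3.87 for HIST2H2BF. H3 genes had differences of 2.77 for HIST1H3A, 1.93 for HIST1H3B, 2.47 for HIST1H3C and 3.44 for HIST2H3D, and H4 genes of 2.23 for HIST1H4B, 1.44 for HIST1H4C, 2.36 for HIST1H4D and 2.39 for HIST1H4H.

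The smallest of these differences, that of HIST1H4C, belonged to the gene with the highest mitotic level (243 and 385 fragments without IP). Several of the largest belonged to genes with few mitotic fragments, among them HIST2H3D with 3 and 8, HIST1H2BE with 2 and 2 and HIST1H2AJ with 1 and 1 in the mitotic IP. The part of depth and of the pseudocount in these differences was not tested beyond the alternatives given in the next part.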

How the results depend on the processing

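The counts of called genes stayed within 1.5 times of those reported under each alternative, but the direction in the mitotic IP did not: with length and GC trends removed, 9 genes were lower and 11 higher, and 1 was higher with a pseudocount of 0.1, with median centring or without mitotic IP replicate 2. In the interphase IP, the median of -3.47 became -3.50 with a pseudocount of 0.1, -2.99 after quantile normalization, -3.35 after median centring and -1.44 with length and GC trends removed. In the mitotic IP it became -1.27 with the smaller pseudocount and -0.01 with the trends removed. The median difference between phases became 2.10, 2.03 after quantile normalization and 1.62 with the trends removed. For mitosis without IP it became -6.85, -5.81 after quantile normalization, -6.21 after centring and -5.84 with the trends removed, and for mitosis in the IP -4.40 and -4.16.

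Leaving out each library gave medians of -3.48 to -3.45 in the interphase IP, -0.85 to -0.64 in the mitotic IP, 2.33 to 2.49 for the difference, -6.14 to -6.05 for mitosis without IP and -3.86 to -3.60 in the IP, with 26 to 32 genes called in the mitotic IP and 39 to 40 for the difference.

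Single genes of the mitotic IP changed sign. With length and GC trends removed, values were 0.89 for HIST1H1B, 0.41 for HIST1H1C, 0.81 for HIST1H1E and 0.92 for HIST1H2AB. They were 1.01 for HIST1H2AJ, 0.96 for HIST1H2AK, 1.17 for HIST1H3A, 1.35 for HIST2H2AB and 1.06 for HIST2H3D. All of these were then called higher, as were HIST1H2AD (0.90) and HIST1H2AL (0.97). Of them, HIST1H1C, HIST1H2AB, HIST1H2AD and HIST1H2AL had been called lower without this correction. Values of 0.24 for HIST1H2AH, 0.22 for HIST1H2BK and 0.31 for HIST1H3C were not called. HIST2H2AB was also 0.00 after quantile normalization and 0.05 after centring. Over the fits with 1 library left out, HIST2H2AB ranged from -0.20 to 0.11 (0.10 without replicate 1 of mitosis without IP), HIST1H1B from -0.33 to 0.01, HIST1H1E from -0.44 to 0.02, HIST1H3E from -0.75 to 0.14 and HIST1H2AJ from -0.84 to 0.05. The call of HIST1H2AB (-0.41) was lost in 6 of 8 such fits and that of HIST3H2A without replicate 2 of mitosis without IP (-0.72). The cause was not tested.

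A replicate block in the fit gave 31 called genes in the mitotic IP, and the other counts did not change. Deviations of same-numbered libraries correlated at 0.09 to 0.53 across genes, and with 2 numbers a group these do not show a pairing. No gene's interval overlapped another gene of the table, so that alternative left the same 40. Depth limits the mitotic IP most, where 18 and 15 genes had 10 fragments or fewer.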
